A study of Mus musculus with 15 samples.

Results

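Genes that lie next to each other on mouse chromosome 7 are described here in T cells with and without AMPKα1, the catalytic subunit of the energy sensor AMP-activated protein kinase. They are the scavenger receptor genes Cd163l1 and 5830411N06Rik and the olfactory receptor genes Olfr525, Olfr527 and Olfr60, which make up 5 of the 55421 genes counted. The genes were selected on the KO against WT difference of these same samples, being neighbours that were lower in KO, so their KO values are given as a description, without a test. Naive CD4+ T cells of C57BL/6 mice were transferred into Rag2–/– recipients, which lack T and B cells of their own and develop colitis from the transfer, and 6 weeks later T cells of the spleen and of the mesenteric lymph nodes (mLN) were sorted for RNA sequencing. Prkaa1, which encodes AMPKα1, was floxed in the donors of both groups. WT donors had no Cre, and KO donors carried CD4-Cre, which deletes the gene at the stage of CD4+CD8+ thymocytes. Donors were littermates, and mice were used at 6 to 8 weeks of age. The groups were WT spleen (4 samples), KO spleen (4 samples), WT mLN (3 samples, replicates 1, 2 and 4) and KO mLN (4 samples). WT cells without Cre are the controls, so loss of Prkaa1, presence of the Cre transgene and any donor genome segment inherited with it cannot be told apart. The paper reports milder inflammation in recipients of KO cells than in those of WT cells. The recipients' disease state therefore cannot be told apart from donor genotype. In bulk RNA, fewer cells of a type and less RNA per cell cannot be told apart either.

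Each sample had between 9363940 and 11283439 reads on genes, which were 29.7% to 32.6% of its reads. A further 46.9% to 52.4% fell on no annotated gene. How far such reads add to genes with few counts was not tested. Prkaa1 reached 46.3 to 54.1 counts per 1e6 reads on genes (CPM) in WT spleen and 18.4 to 21.7 CPM in KO spleen. In mLN it reached 49.0 to 60.9 CPM in WT and 21.4 to 32.2 CPM in KO. The targeted gene thus separated all WT from all KO samples, with a log2 fold change of −1.33 ± 0.08 (SE) in spleen and −0.95 ± 0.16 in mLN (edgeR adjusted p = 7.63e-05 and 0.0372). All 8 CD4 T cell markers examined (Cd3d, Cd3e, Cd3g, Cd4, Trac, Trbc1, Trbc2, Cd2) were detected in every sample, with a summed level of 6054 to 8446 CPM.

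Cd163l1 and 5830411N06Rik encode membrane proteins built from scavenger receptor cysteine-rich (SRCR) domains, a fold shared with CD5, CD6 and the haemoglobin receptor CD163. RefSeq lists them under the synonyms Scart1 and Scart2, and both are known from γδ T cells, where Scart2 marks cells that make IL-17. Olfr525, Olfr527 and Olfr60 encode olfactory receptors, G protein-coupled receptors that detect odorants in sensory neurons of the nose. Olfactory receptor genes form large tandem clusters, and a sensory neuron normally uses a single one of them.

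In GRCm38 the 5 genes span 143 kb of chromosome 7, from position 140218267 to 140361671. Cd163l1 (ENSMUSG00000025461) is on the plus strand at chr7:140218267-140231145, with 3851 bases of exon. 5830411N06Rik (ENSMUSG00000054672) follows on the plus strand at chr7:140247284-140300736, with 5532 bases of exon. Olfr525 (ENSMUSG00000061489) is on the plus strand at chr7:140320858-140327625, and Olfr527 (ENSMUSG00000062782) is on the plus strand at chr7:140334017-140338551. Olfr60 (ENSMUSG00000060112) is on the minus strand at chr7:140343815-140361671 and is the only one of the 5 that runs the other way. No other annotated gene overlaps any of them. The coding sequences of the 2 scavenger receptor genes had 73.8% of aligned bases in common, and those of the olfactory receptor pairs 68.4% to 70.6%.

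Sequence sharing bears on the counts, because reads that align to several places were not counted. Of all stretches of 75 bases, the read length, in the transcripts, those of Cd163l1 and 5830411N06Rik occurred in no other gene's transcripts. Olfr525 had 0.136% in common with Olfr532, Olfr527 had 1.53% in common with Olfr531, and Olfr60 had 1.78% in common with other olfactory receptor genes. The comparison was with annotated transcripts, and copies elsewhere in the genome were not examined.

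Promoter windows of the 2 scavenger receptor genes are shown because these genes lie side by side, are related in coding sequence and were both lower in KO. Each is the 250 bases before a start site in RefSeq's promoter table, on the plus strand of GRCm38.p6. The window of Cd163l1, at chr7:140218017-140218266, ends just before the GENCODE start of the gene, while the RefSeq gene record begins further upstream, at 140197218. For 5830411N06Rik the promoter table lists 3 start sites, and the most upstream of these was used. Its window, at chr7:140247051-140247300, runs past the GENCODE start at 140247284 and so includes the first bases of the annotated gene. The RefSeq gene record, which begins at 140247279, also starts inside this window. Capitals mark matches to any of 5 motifs searched on both strands.
Cd163l1: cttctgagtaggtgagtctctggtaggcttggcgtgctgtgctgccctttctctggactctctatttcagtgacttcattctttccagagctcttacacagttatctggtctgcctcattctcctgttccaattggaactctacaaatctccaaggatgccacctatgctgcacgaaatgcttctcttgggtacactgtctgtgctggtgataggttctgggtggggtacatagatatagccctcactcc
5830411N06Rik: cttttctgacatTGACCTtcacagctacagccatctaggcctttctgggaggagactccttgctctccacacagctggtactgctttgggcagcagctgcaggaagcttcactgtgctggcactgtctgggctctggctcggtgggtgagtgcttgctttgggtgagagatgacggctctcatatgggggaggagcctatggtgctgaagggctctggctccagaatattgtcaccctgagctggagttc
The motifs were AGGTCA (ROR site), GTAAACA (FOXO site), AACAAT (SOX site), CAGGTG (E-box) and TGTGGT (RUNX site). The window of 5830411N06Rik held a single match, to the ROR site on the minus strand, at position −238 from the start site of its own window. The same motif occurred in 14.0% of 32851 RefSeq windows of this length. FOXO, SOX, E-box and RUNX motifs occurred in 3.17%, 9.42%, 17.2% and 14.0% of those windows. These letters were not found in the window of Cd163l1. G and C made up 48.8% of the Cd163l1 window and 56.0% of the 5830411N06Rik window.

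All 5 genes were lower in KO than in WT cells of both organs, at 29.6% to 51.7% of the WT mean in spleen and 31.1% to 50.3% in mLN. These are the values that chose them. In spleen, 0.323% of the 14254 genes tested were called lower in KO (adjusted p below 0.05 and log2 fold change below −1), and the groups did not overlap, with KO lower, for 6.31%. In mLN, 0.104% of 14359 genes were called lower, and the groups did not overlap, with KO lower, for 6.94%. All 5 genes passed the filter on low counts in both organs. KO samples lay below all WT samples for the 5 genes in spleen and for 4 of them in mLN, the exception being Olfr527.

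**Figure D1:**
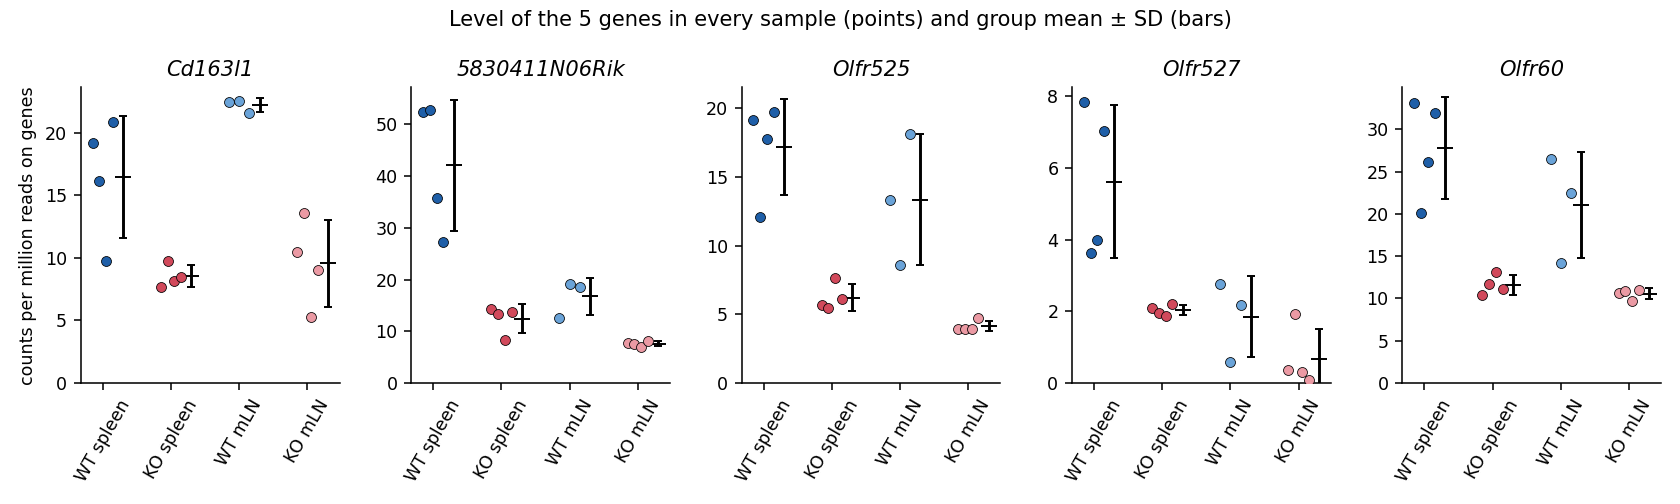
Counts per 1e6 reads on genes (vertical axes, each from 0 and with its own range) of the 5 genes in the 4 groups (horizontal axis). Points are samples and bars are the mean ± SD, cut at 0 for Olfr527 in KO mLN. KO points lie below WT points of the same organ except for Olfr527 in mLN, and 5830411N06Rik is highest in WT spleen, at 27.3 to 52.9 CPM.

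5830411N06Rik had the highest level of the 5 in WT spleen, at 52.4, 52.9, 35.8 and 27.3 CPM in replicates 1 to 4. In KO spleen it reached 14.4, 13.3, 8.28 and 13.8 CPM. Every KO sample lay below the lowest WT sample. In mLN the gene was at 12.7, 19.2 and 18.5 CPM in WT replicates 1, 2 and 4. The KO mLN samples held 7.84, 7.53, 7.04 and 8.12 CPM. Here too the groups did not overlap, and the KO samples differed among themselves by less than the WT samples. The log2 fold change was −1.74 ± 0.23 in spleen and −1.14 ± 0.21 in mLN, or 29.6% and 45.4% of the WT mean.

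Cd163l1 was at 19.2, 16.1, 9.77 and 20.9 CPM in WT spleen and at 7.67, 9.74, 8.19 and 8.51 CPM in KO spleen. The groups came close, since WT replicate 3 lay just above KO replicate 2, with 103 and 109 raw reads in libraries of different size. In mLN the gene was at 22.5, 22.5 and 21.5 CPM in WT and at 10.4, 13.6, 5.25 and 9.01 CPM in KO. The 3 WT samples were nearly alike, whereas KO replicates 2 and 3 lay furthest apart, at 148 and 53 reads. KO against WT gave a log2 fold change of −0.93 ± 0.21 in spleen and −1.22 ± 0.27 in mLN. Its spleen value is above −1, so Cd163l1 was the only one of the 5 that the fold limit would leave out in spleen. The WT spleen sample lowest for Cd163l1 was replicate 3, and the one lowest for 5830411N06Rik was replicate 4, so the 2 scavenger receptor genes did not share their order among WT spleen samples.

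Olfr60 was the highest of the 3 olfactory receptor genes in all groups. It was at 33.1, 20.1, 26.1 and 31.9 CPM in WT spleen and at 10.4, 11.7, 13.2 and 11.2 CPM in KO spleen. The WT mLN samples held 26.4, 14.1 and 22.5 CPM, and the KO mLN samples 10.6, 10.9, 9.71 and 11.1 CPM. The groups did not overlap in either organ, and WT replicate 2 was the lowest WT sample in both. This gave log2 fold changes of −1.24 ± 0.17 in spleen and −1.0 ± 0.22 in mLN.

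Olfr525 was at 19.2, 12.1, 17.7 and 19.8 CPM in WT spleen and at 5.67, 5.45, 7.62 and 6.12 CPM in KO spleen. In mLN it was at 13.3, 8.60 and 18.1 CPM in WT and at 3.96, 3.95, 3.96 and 4.73 CPM in KO. As for Olfr60, WT replicate 2 was the lowest WT sample in both organs and no KO sample reached it. The log2 fold change was −1.45 ± 0.19 in spleen and −1.70 ± 0.28 in mLN, the largest of the 5 in mLN.

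Olfr527 had the fewest reads. In spleen it was at 7.85, 3.63, 3.98 and 7.02 CPM in WT, from 34 to 75 reads, and at 2.10, 1.97, 1.88 and 2.22 CPM in KO, from 20 to 25 reads. The groups did not overlap. In mLN it was at 2.77, 0.593 and 2.19 CPM in WT and at 0.360, 1.93, 0.297 and 0.0892 CPM in KO. The KO replicate with 21 reads lay above the WT replicate with 6 reads, while the other KO replicates had 1 to 4 reads. Olfr527 had a log2 fold change of −1.44 ± 0.28 in spleen and −1.47 ± 0.85 in mLN, so the mLN value has a wide error.

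The genotype difference in mLN minus that in spleen, on the log2 scale, was 0.60 ± 0.32 (SE) for 5830411N06Rik, −0.29 ± 0.36 for Cd163l1, −0.25 ± 0.33 for Olfr525, −0.04 ± 0.68 for Olfr527 and 0.23 ± 0.28 for Olfr60. These values come from the contrast that chose the genes and carry no test. The value of 5830411N06Rik exceeded its SE, with the smaller loss in mLN, and ran from 0.43 to 0.76 when any one sample was left out. Those of the other 4 were smaller than their SE with all samples and moved with single samples. Cd163l1 ran from −0.50 without KO mLN replicate 2 to −0.09 without KO mLN replicate 3. Olfr525 ran from −0.50 without WT mLN replicate 2 to 0.03 without WT mLN replicate 4, and Olfr60 from 0.004 without WT mLN replicate 2 to 0.44 without WT mLN replicate 1. Olfr527 was at −1.43 without KO mLN replicate 2 and at 0.38 without WT mLN replicate 1, so neither its size nor its sign is settled.

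Levels were compared between genes per kilobase of exon, as CPM divided by the exon length in kilobases (RPKM). In WT spleen the order was Olfr60 at 8.33 ± 1.79 (SD), 5830411N06Rik at 7.61 ± 2.29, Cd163l1 at 4.28 ± 1.27, Olfr525 at 3.34 ± 0.68 and Olfr527 at 1.65 ± 0.62 RPKM. Olfr60 and 5830411N06Rik differed by less than their spread, and so did Cd163l1 and Olfr525. In WT mLN Olfr60 (6.31 ± 1.88 RPKM) and Cd163l1 (5.76 ± 0.15 RPKM) led and differed by less than the spread, followed by 5830411N06Rik at 3.04 ± 0.65, Olfr525 at 2.6 ± 0.93 and Olfr527 at 0.54 ± 0.33 RPKM. The rank of 5830411N06Rik thus fell from the second in WT spleen to the third in WT mLN. In KO spleen Olfr60 was at 3.48 ± 0.35 RPKM and clear of the next, while 5830411N06Rik (2.25 ± 0.51) and Cd163l1 (2.21 ± 0.23) were alike within their spread. In KO mLN the order was Olfr60 at 3.17 ± 0.18, Cd163l1 at 2.49 ± 0.90, 5830411N06Rik at 1.38 ± 0.08, Olfr525 at 0.81 ± 0.07 and Olfr527 at 0.20 ± 0.25 RPKM. For comparison, Prkaa1 was at 11.0 ± 0.80 RPKM in WT spleen.

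The choice of the genes did not use the difference between organs, so it was tested within each genotype. 5830411N06Rik was lower in mLN than in spleen in both genotypes, and no other of the 5 passed the test in the unpaired fit. In WT cells 20.5% of the 14515 genes tested passed an adjusted p of 0.05 in either direction, and 10.8% of all genes tested passed as lower in mLN. In KO cells 25.3% of the 14240 genes tested passed in either direction, and 13.9% of all genes tested passed as lower. One gene of 5 in each genotype is close to those shares, so the count itself is no result about the cluster. With the replicate number as a block, 3 of the 5 passed in WT, where 30% of all genes did. All 5 genes passed the filter on low counts in both fits.

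**Figure D2:**
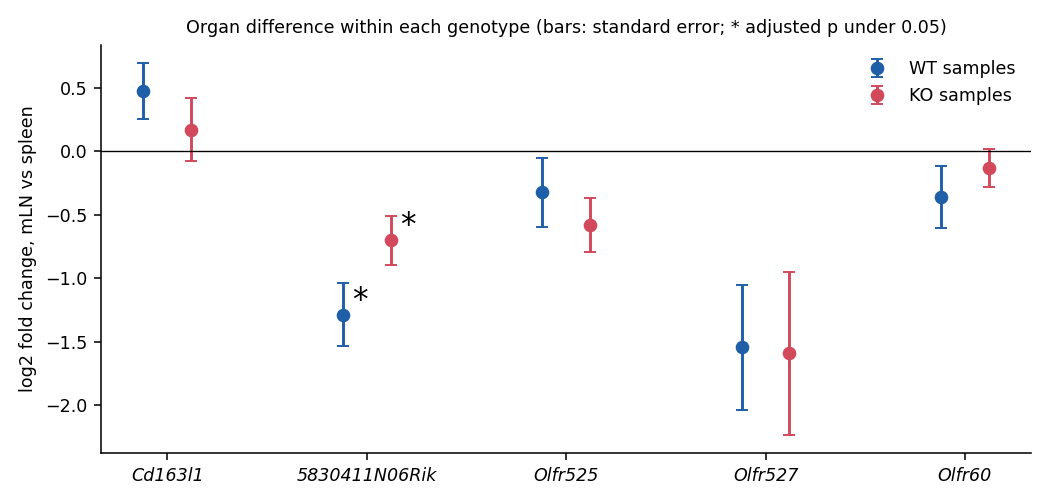
Log2 fold change of mLN against spleen (vertical axis) for each gene (horizontal axis) in WT and KO samples, with SE bars. Stars mark an adjusted p below 0.05 in edgeR without a replicate block. 5830411N06Rik carries the stars, at −1.29 in WT and −0.70 in KO, and Cd163l1 has the only values above 0.

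The mLN level of 5830411N06Rik was 39.9% of its spleen level in WT and 61.3% in KO. The log2 fold change of mLN against spleen was −1.29 ± 0.25 (SE) in WT (edgeR adjusted p = 0.00768) and −0.70 ± 0.19 in KO (adjusted p = 0.0195). In both genotypes the highest mLN sample lay below the lowest spleen sample, which held for 18.2% of all genes tested in WT and 15.3% in KO. In WT the call held without any one sample, with adjusted p from 0.00217 to 0.0305. In KO the adjusted p rose to 0.0649, 0.0567 and 0.0640 without KO spleen replicate 1, 2 or 4.

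Olfr527 had mLN levels of 33.0% of spleen in WT and 32.8% in KO, with log2 fold changes of −1.54 ± 0.49 (adjusted p = 0.0537) and −1.59 ± 0.64 (adjusted p = 0.0923). Replicate numbers were taken to pair the organs in WT, from correlations between samples, as the labels do not state a pairing. With the replicate number as a block the WT value was −1.75 with an edgeR adjusted p of 0.00312. Olfr60 changed call in the same way, from −0.36 ± 0.24 (adjusted p = 0.331) to −0.39 with the block (adjusted p = 0.0399). WT spleen replicate 3 has no mLN partner and adds nothing to the blocked difference. In KO, Olfr60 was at −0.13 ± 0.15 (adjusted p = 0.549). Olfr525 was at −0.32 ± 0.27 in WT (adjusted p = 0.433) and −0.58 ± 0.21 in KO (adjusted p = 0.0635). Its KO samples did not overlap between the organs, while its WT samples did. Single WT mLN samples moved these WT values. Without WT mLN replicate 2 the difference was −0.08 for Olfr525, −0.13 for Olfr60 and −1.12 for Olfr527. Olfr525 was at −0.61 without WT mLN replicate 4, and Olfr60 was at −0.57 and Olfr527 at −1.97 without WT mLN replicate 1.

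Cd163l1 was at 135% of its spleen level in WT mLN and 112% in KO mLN. The log2 fold change was 0.47 ± 0.22 in WT (adjusted p = 0.165) and 0.17 ± 0.25 in KO (adjusted p = 0.664). All 3 WT mLN samples lay above all WT spleen samples, which held for 13.3% of all genes tested, but the difference did not pass the test. The 2 scavenger receptor genes therefore pointed in opposite directions between the organs, with a test passed only by 5830411N06Rik. Leaving out single samples moved the WT value of Cd163l1 from 0.30 (without WT spleen replicate 3) to 0.60 (without WT spleen replicate 4), and the KO value from −0.04 (without KO mLN replicate 2) to 0.38 (without KO mLN replicate 3).

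The genes around the 5 were examined next, since the genes had been chosen as a chromosomal cluster. Within 1 Mb of either end, 44 of 105 other annotated genes were tested in spleen, and 39 of them had a negative log2 fold change in KO. Over all genes tested in spleen, 50.7% were negative. The median of the 44 was −0.25, beside −0.004 for all genes tested. In mLN 35 of 43 were negative, with a median of −0.27 beside −0.004, and 50.4% of all genes were negative. From 1 to 5 Mb on either side, 29 of 57 genes were negative in spleen (median −0.009) and 29 of 59 in mLN (median 0.002). In mLN the outermost tested genes within 1 Mb were above 0. These were Lrrc27 (0.20) and Pwwp2b (1.08) before the cluster. After it they were Rassf7 (0.08), Phrf1 (0.11), Irf7 (0.44), Deaf1 (0.07) and Tmem80 (0.04). In spleen the same genes ran from −0.23 (Pwwp2b) to 0.51 (Irf7). Lower values were thus not restricted to the 5 chosen genes. They were frequent within 1 Mb, in mLN short of its outer ends, and did not show in the next 4 Mb. On the side before the cluster those 4 Mb held few tested genes. There 4 of 9 were negative in spleen and 6 of 10 in mLN (median 0.083 and −0.088).

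In spleen 19 of the 44 neighbours were lower and 2 higher at an unadjusted p below 0.05, and DESeq2 passed 10 by the adjusted p and called 3. In edgeR 1 was called lower, Gm6376, a processed pseudogene 24.1 kb after the last of the 5, at −1.65 ± 0.27 (adjusted p = 0.0324), and at −1.26 ± 0.65 in mLN (adjusted p = 0.388). Tubgcp2, which encodes a γ-tubulin complex protein and lies before the cluster, was at −0.49 ± 0.07 (adjusted p = 0.0123), past the adjusted p but not the fold limit, and at −0.25 ± 0.13 in mLN (adjusted p = 0.395). In mLN edgeR called none of 43, with 11 lower and 1 higher at an unadjusted p below 0.05, and DESeq2 called 1. From 1 to 5 Mb edgeR called none, although at an unadjusted p below 0.05 there were 5 lower and 2 higher genes of 57 in spleen, and of 59 genes in mLN 8 lower and 1 higher, and DESeq2 called none in spleen and 1 in mLN. In spleen the groups did not overlap, with KO lower, for 12 of the 44 genes within 1 Mb (27.3%, beside 6.31% of all genes), and in mLN for 6 of 43 (14.0%, beside 6.94%). With KO higher, the groups did not overlap for 2 of the 44 genes in spleen, Hras and Irf7, and for 1 of 43 in mLN, Irf7. Irf7, which encodes a transcription factor of the interferon response, was at 0.51 ± 0.12 in spleen (adjusted p = 0.0616) and 0.44 ± 0.14 in mLN (adjusted p = 0.173). Those medians and shares are descriptions, as genes of one region are not independent.

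**Figure D3:**
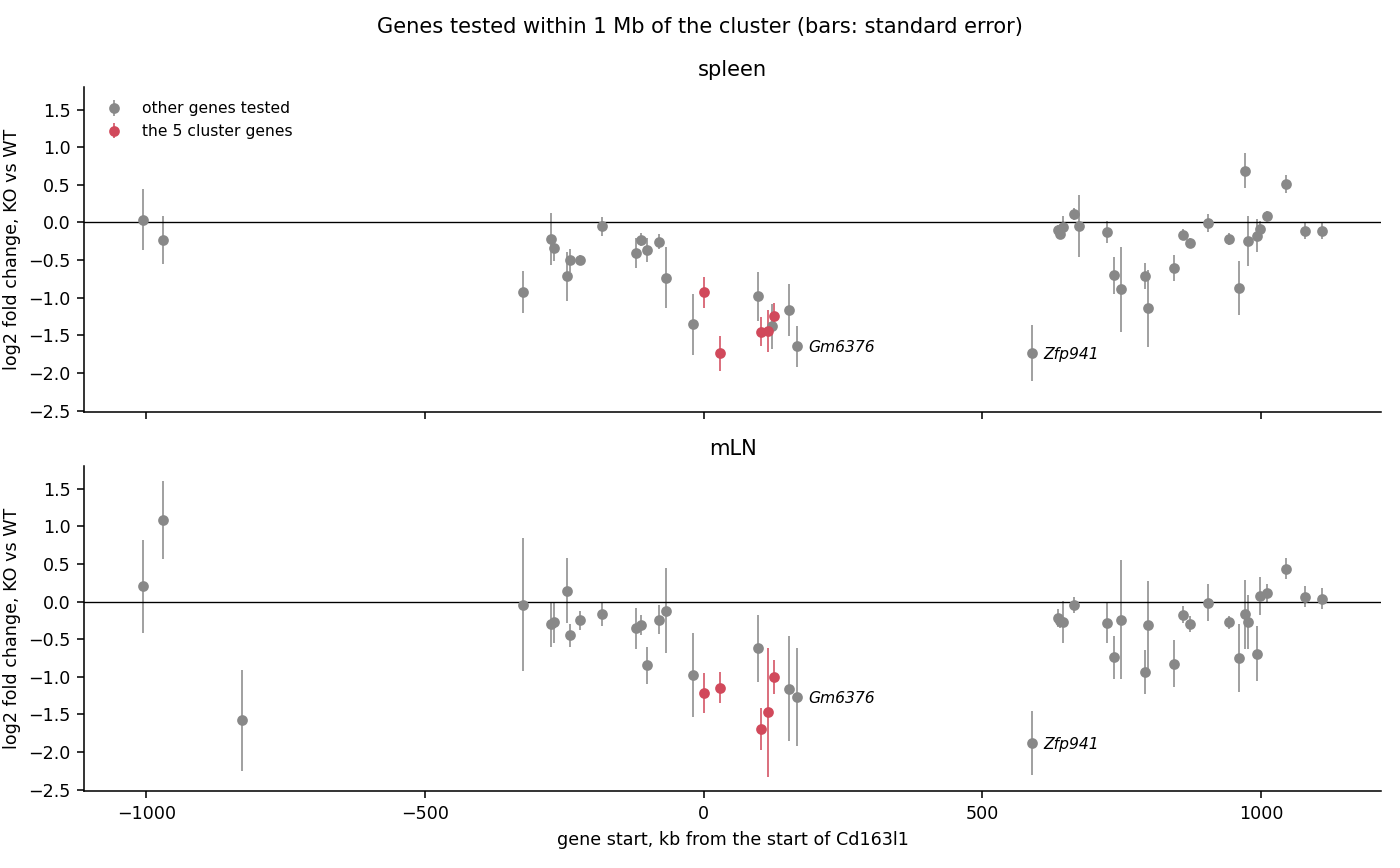
Log2 fold change of KO against WT (vertical axis) of genes tested within 1 Mb of the cluster, by distance of the gene start from the start of Cd163l1 in kb (horizontal axis), with SE bars, in spleen (top) and mLN (bottom). The 5 chosen genes are red. Most grey points lie below 0 as well, 39 of 44 in spleen and 35 of 43 in mLN, and Zfp941 lies as low as the chosen genes.

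Immediately before Cd163l1 lie Mtg1 (a mitochondrial ribosome assembly GTPase), Sprn, Olfr522, Olfr523 and Olfr524. Olfr524, 19.8 kb from Cd163l1 by its start, was at 3.29 ± 1.52 CPM (SD) in WT spleen and 1.25 ± 0.41 in KO spleen, with a log2 fold change of −1.35 ± 0.40 (adjusted p = 0.108), and at −0.98 ± 0.55 in mLN (adjusted p = 0.439). The RefSeq record of Cd163l1 begins at position 140197218 and so spans Olfr524, which GENCODE keeps apart. Mtg1 was at −0.25 ± 0.10 in spleen (adjusted p = 0.180) and −0.24 ± 0.19 in mLN (adjusted p = 0.600), and Sprn at −0.73 ± 0.40 and −0.12 ± 0.57 (adjusted p = 0.337 and 0.946). Olfr522 and Olfr523 had at most 16 reads in a sample and were not tested.

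Inside the cluster, the pseudogene Olfr528-ps1 was at 2.49 ± 0.79 CPM in WT spleen and 0.938 ± 0.179 in KO spleen, at −1.38 ± 0.30 (adjusted p = 0.0548), and Gm45456 was at −0.98 ± 0.32 (adjusted p = 0.130). In mLN Olfr528-ps1 was not tested, and Gm45456 was at −0.62 ± 0.45 (adjusted p = 0.559). After Olfr60, Olfr530 was at −1.16 ± 0.35 in spleen (adjusted p = 0.109) and −1.16 ± 0.70 in mLN (adjusted p = 0.473). The next olfactory receptor genes, Olfr531, Olfr532, Olfr533 and Olfr535, had at most 6 reads in any sample. Zfp941, a zinc finger gene 446 kb after Olfr60, was singled out after its values were seen. It was at 4.66 and 1.40 CPM in WT and KO spleen and at 4.91 and 1.33 CPM in WT and KO mLN. Its log2 fold change was −1.74 ± 0.37 in spleen (adjusted p = 0.0516) and −1.88 ± 0.43 in mLN (adjusted p = 0.0780), and its groups did not overlap in either organ. Between it and Gm6376 no gene was tested.

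Olfactory receptor genes as a class had few reads in these cells. Of 1407 annotated genes, 1060 had a read in some sample, 163 had more than 3 reads in a sample, and the median total over all 15 samples was 2 reads. Olfr60 and Olfr525 ranked the first and the second by level per kilobase, with means of 5.26 and 1.95 RPKM over all samples, and Olfr527 ranked 9th with 0.759 RPKM. Olfr60, Olfr525 and Olfr527 together took 35.6% of all olfactory receptor reads, 4640 of 13051. Within single samples this share ran from 21.1% to 57.2% in WT spleen, 21.9% to 45.4% in KO spleen, 35.3% to 60.8% in WT mLN and 10.3% to 37.2% in KO mLN. The pooled share and the ranks thus mix groups in which the 3 genes had different levels. The pseudogenes Olfr528-ps1, Olfr756-ps1 and the gene Olfr99 came next after Olfr525, at 1.72, 1.53 and 1.52 RPKM.

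**Figure D4:**
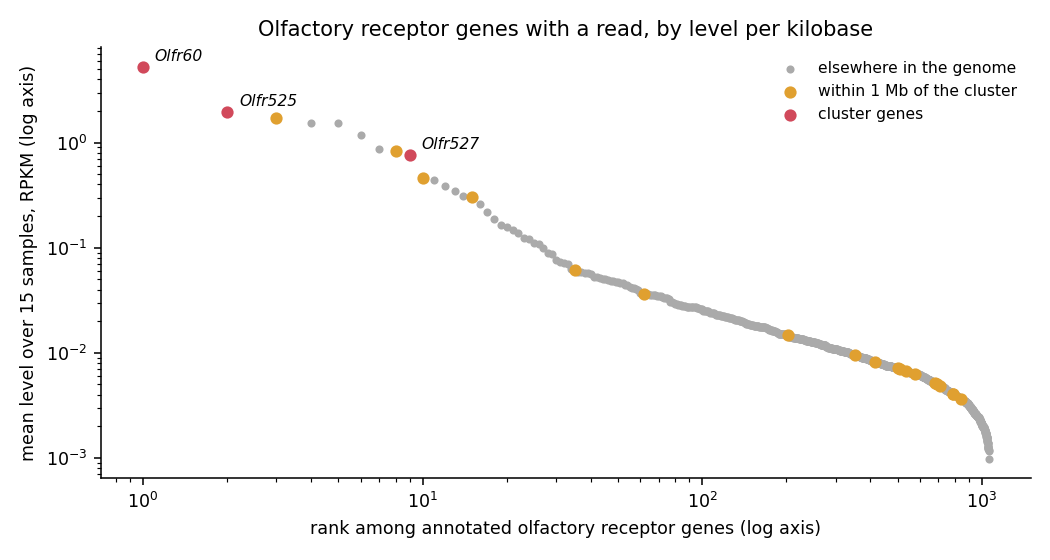
Mean level over the 15 samples in RPKM (vertical log axis) against rank (horizontal log axis) for olfactory receptor genes with a read. Red points are the cluster genes and orange points other olfactory receptor genes within 1 Mb. Olfr60 stands apart at 5.26 RPKM, followed by Olfr525 at 1.95, and Olfr528-ps1 from the same region is the third at 1.72.

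Olfactory receptor genes away from the cluster overlapped between the genotypes. Their summed level beyond 1 Mb was 61.3 ± 42.9 CPM (SD) in WT spleen, 34.4 ± 17.2 in KO spleen, 33.6 ± 10.7 in WT mLN and 62.1 ± 45.4 in KO mLN. Of 1404 olfactory receptor genes other than Olfr525, Olfr527 and Olfr60, 11 were tested in spleen and 10 in mLN, and edgeR called none in either. At an unadjusted p below 0.05 the spleen gave 4 lower genes and 1 higher gene, and mLN gave none, and DESeq2 called Olfr528-ps1 in spleen. The median log2 fold change was −0.40 in spleen and −0.20 in mLN, and these few tested genes include neighbours of the cluster. Between the organs, Olfr755-ps1 was lower in WT mLN (−1.38 ± 0.38, adjusted p = 0.0329) and Olfr156 higher in KO mLN (1.71 ± 0.51, adjusted p = 0.0300). Of 6 genes of the olfactory neuron, Omp, Cnga2, Rtp1 and Rtp2 had at most 2 reads in every sample. The summed level of all 6, nearly all from Gnal and Adcy3, which other cells also use, was 76.1 to 86.1 CPM in WT spleen and 70.0 to 84.0 in KO spleen.

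Among other genes with SRCR domains edgeR called none between the genotypes. Of 15 such genes 10 were tested between the genotypes in each organ, and at an unadjusted p below 0.05 there were 3 higher genes and no lower one in spleen, beside 1 of each direction in mLN. DESeq2 called 1 in spleen and none in mLN. The median log2 fold change was −0.15 in spleen and −0.59 in mLN, beside −0.004 for all genes in both. Cd6, Cd5 and Lgals3bp were the most abundant per kilobase. Cd6, a co-receptor of T cells, was at 159 RPKM in WT spleen and 139 in KO spleen. Cd5, which dampens T cell receptor signals, was at 114 and 118 RPKM, and Lgals3bp, a secreted galectin ligand, at 81.2 and 97.7 RPKM. Their levels exceed that of 5830411N06Rik, at 7.61 RPKM in WT spleen, by more than 10 times. Between the organs, Loxl4 was lower in WT mLN (−2.02 ± 0.56, adjusted p = 0.0336), Cd163 lower in KO mLN (−4.55 ± 0.80, adjusted p = 0.00178), and Lgals3bp higher in KO mLN (0.41 ± 0.07, adjusted p = 0.00152). Cd163 is a macrophage gene, and in the same KO comparison the macrophage markers Csf1r (−1.49), Lyz2 (−1.24) and Adgre1 (−1.86) were lower in mLN as well (adjusted p = 0.00126, 0.0164 and 0.00904). They were the 3 that passed of 4 macrophage genes tested in KO. Cd68 was at 15.3 CPM in KO spleen and 14.0 CPM in KO mLN. In WT edgeR passed none of 5 macrophage genes by the adjusted p. The part of macrophages in the Cd163 value was not tested.

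Since Scart1 and Scart2 are known from γδ T cells, markers of that lineage are given beside the cluster. Summed over 9 γδ T cell genes, the level was 85.5 to 104 CPM in WT spleen and 51.3 to 65.1 CPM in KO spleen, without overlap, and 163 to 199 CPM in WT mLN and 107 to 230 CPM in KO mLN, with overlap. Of the 5 that were tested in spleen, Tcrg-C2 was lower in KO by the adjusted p (−0.52 ± 0.11, adjusted p = 0.0475), below the fold limit. The median of the 5 was −0.80 in spleen, beside −0.004 for all genes tested, and 3 of them were lower at an unadjusted p below 0.05. In mLN edgeR passed none of 5 by either p, nor did DESeq2 by the adjusted p, and their median was −0.33. Trdc was at 12.6 and 3.61 CPM in WT and KO spleen (−1.78 ± 0.76, adjusted p = 0.224) and at 9.65 and 5.21 CPM in WT and KO mLN (−0.90 ± 0.47, adjusted p = 0.394). Between the organs, Tcrg-C1, Tcrg-C2 and Tcrg-C4 were higher in mLN in both genotypes, Tcrg-C2 by 1.10 ± 0.14 in WT (adjusted p = 0.00115) and 1.52 ± 0.17 in KO (adjusted p = 9.57e-05). 5830411N06Rik went the other way, being lower in mLN. Most of the summed level came from the Tcrg constant genes, which αβ T cells also transcribe. Of the defining genes, Trdc (the δ constant region) reached 14 to 225 reads a sample, Sox13 at most 3 reads, Blk at most 5 and Trdv4 at most 7. Of the γ variable genes, Tcrg-V4 had 3 to 41 reads a sample. Tcrg-V6 had 2 to 7 reads in WT mLN and 0 to 110 in KO mLN, and at most 19 in spleen. Between the genotypes, Tcrg-C4 was the only gene of the 5 with values above 0. It was at 0.30 in spleen (edgeR adjusted p = 0.682) and 0.61 in mLN (adjusted p = 0.454). The part of γδ T cells in the KO difference was not tested.

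Genes of the IL-17 programme, which is shared by γδ T cells and Th17 cells, summed to 451 to 654 CPM in WT spleen and 366 to 470 in KO spleen, and to 429 to 740 CPM in WT mLN and 368 to 464 in KO mLN, with overlap in both organs. None of the 5 tested in spleen or the 7 tested in mLN passed the adjusted p in edgeR or DESeq2 between the genotypes, with none in spleen and 1 lower in mLN at an unadjusted p below 0.05. Erythroid genes, which mark red blood cells and their precursors, summed to 76.5 to 1634 CPM in WT spleen, 33.8 to 89.4 in KO spleen, 17.0 to 686 in WT mLN and 14.8 to 61.7 in KO mLN. WT spleen replicates 3 and 4 and WT mLN replicate 4 were high. Among WT spleen samples, 5830411N06Rik was lowest in replicates 3 and 4. Cd163l1 was lowest in replicate 3, the sample with the highest erythroid sum, and highest in replicate 4. In WT mLN replicate 4 it was the lowest WT sample, at 21.5 CPM, although the WT mLN samples were nearly alike. Olfr525 was highest in replicate 4 of both WT spleen and WT mLN. In spleen all 4 erythroid genes were lower at an unadjusted p below 0.05, at a median of −3.51, and DESeq2 called all 4 lower, while edgeR called none. In mLN 3 of 3 tested were lower at an unadjusted p below 0.05, at a median of −2.46, and neither tool called any. Summed levels of the macrophage and monocyte, dendritic cell, NK cell and B cell lists overlapped between the genotypes in both organs. Those of the CD8 T cell list, of 2 genes, overlapped in spleen. In mLN they were 7.18 to 11.6 CPM in WT and 18.9 to 28.2 CPM in KO. Cd8b1 of that list did not share the mLN difference, at 4.45 CPM in WT and 4.31 CPM in KO (log2 fold change −0.06, edgeR adjusted p = 0.968). Of these lists, edgeR called Pax5, a B cell transcription factor, higher in KO mLN (4.40 ± 0.75, adjusted p = 0.0372), from 0 to 2 reads in WT and 18 to 48 in KO samples. No other gene of them passed the adjusted p in edgeR between the genotypes. At an unadjusted p below 0.05, 3 of 5 macrophage genes were higher in KO spleen, where of the 2 NK cell genes 1 was higher and 1 lower, and in mLN 1 gene each of the CD8 T cell, B cell and dendritic cell lists was higher and 1 NK cell gene lower. By DESeq2's adjusted p, Adgre1, Cd68 and Csf1r passed in spleen, and Pax5, Siglech and Klrb1c were called in mLN. The part of these cell types in the difference was not tested.

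Genes with the most similar pattern over the 15 samples were ranked among 15438 genes by the root mean square difference of log2 CPM, each gene centred on its mean. Nearest to 5830411N06Rik were Serpina3f (0.484), Sulf2 (0.495), Gm614 (0.512), Eps8l3 (0.513) and Neat1 (0.515), where the median gene was at 0.991. Olfr525 ranked 18th and Olfr60 44th, while Cd163l1 ranked 1435th and Olfr527 5055th. Nearest to Cd163l1 were Gm37660 (0.276), Ifitm3 (0.282), Satb1 (0.304), Prkaa1 (0.322) and Extl1 (0.328), with a median gene at 0.724. Of the cluster, Olfr60 ranked 224th for Cd163l1 and 5830411N06Rik 10680th. Ifitm3, an interferon-induced antiviral membrane protein, lies in the 1 Mb after the cluster, and Serpina3f, Sulf2, Neat1, Satb1 and Prkaa1 lie on other chromosomes. Serpina3f, a serine protease inhibitor, was at 274 ± 82.3 and 121 ± 23.9 CPM (SD) in WT and KO spleen and at 124 ± 58.8 and 59.5 ± 13.0 CPM in WT and KO mLN. Each of the 2 scavenger receptor genes thus had genes outside the cluster that were closer in pattern than the other. The distances run over both genotypes, so they include the KO against WT difference that chose the genes. With 15438 genes to choose from, the presence of closer genes is no result about the pair, and the ranks are a description.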

How the data were processed

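Messenger RNA of sorted T cells was sequenced as single-end reads of 75 bases. The authors aligned them with STAR 2.6.1a to GRCm38 with GENCODE M23 and deposited raw read counts per gene, with reads that map to several places left out. The strand setting is not given in the sources used here, so antisense genes are uncertain. The authors used DESeq2 1.22.2. Gene names, coordinates and lengths came from GENCODE M21, which matched 55240 of 55421 genes, and promoter sequences from RefSeq, whose start sites can differ from those of GENCODE.

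Counts were tested with edgeR 4.0.16 in R 4.3.3 (edgeR's filter on low counts, TMM, quasi-likelihood test, Benjamini-Hochberg adjustment over all genes tested), in each organ for KO against WT and in each genotype for mLN against spleen. A gene was called at an adjusted p below 0.05 and an absolute log2 fold change above 1. CPM and RPKM were computed from the counts here, and patterns were compared on log2 CPM (prior count 2). Procedures were tested on simulated counts. DESeq2 1.42.0, RLE normalization, other filters, all samples in 1 fit, the replicate block and leaving out each replicate were the alternatives.

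The labels do not say that same-numbered samples come from the same mouse. Deviations of same-numbered WT samples from their group means correlated across organs at 0.259, 0.243 and 0.291, all above 0.1, so the numbers were taken to pair the organs in WT; in KO they were 0.0409, 0.170, 0.0258 and 0.260, and between genotypes −0.210 to 0.146. The study describes its sequencing groups as made up of individual mice of 1 experiment, which the labels do not state for each sample. The members and lists were chosen with earlier results of these data known. Genes named are the 5 members, Prkaa1, the 5 nearest protein-coding genes on either side, genes called within 5 Mb, the 5 most similar in pattern, and of the domain and olfactory lists those called and the 3 highest per kilobase. Tubgcp2, Hras, Irf7, Gm45456, Olfr528-ps1, Zfp941 and the marker genes were named in addition after their values were seen. So were Lrrc27, Pwwp2b, Rassf7, Phrf1, Deaf1 and Tmem80. The values of 1 gene of the marker lists are not reported here.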

Additional observations from a re-analysis of the deposited data

Results flagged for a closer look

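The highest or lowest sample was compared with the rest in 15 groups of 4 samples, where chance flags about 1 in 20, and 2 stood apart. Olfr527 in KO mLN replicate 2, at 1.93 CPM from 21 reads, lay above the other KO mLN samples, which had 1 to 4 reads, and is the reason why the KO and WT groups overlap for this gene in mLN. Olfr525 in KO mLN replicate 4 was at 4.73 CPM, above 3 samples at 3.95 to 3.96 CPM that were nearly alike, and still below every WT sample.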

How the results depend on the processing

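Each of the 5 genes stayed lower in KO in both organs under every alternative that gave a value, with log2 fold changes from −1.91 to −0.80 in spleen and from −1.94 to −0.80 in mLN when any one replicate was left out. Depth limited Olfr527 most, with 1 to 30 reads a sample in mLN, where it did not pass the filter, and so has no value, with at least 10 counts in every sample or without KO mLN replicate 2, its highest KO sample. Between the organs, 5830411N06Rik kept its call in WT throughout. In KO it lost its call without KO spleen replicate 1, 2 or 4, and its values without any one sample ran from −0.85 to −0.63. In WT, Olfr527 passed the adjusted p with DESeq2 (−1.56), without a filter on low counts (−1.54) and with the replicate block (−1.75), and Olfr60 with the replicate block (−0.39). In KO, Olfr525 passed with at least 10 counts in every sample (−0.59), and Olfr527 without a filter (−1.61) and without KO mLN replicate 2 (−2.98, range −2.98 to −1.22 over all samples left out). Cd163l1 in KO ran from −0.036, without KO mLN replicate 2, to 0.38, without KO mLN replicate 3. The replicate block changed no other call. The causes were not tested.

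The numbers of genes called, on which the shares rest, depended more on the setting. Lower and higher in KO, spleen gave 46 and 18 genes, and 131 and 56 with DESeq2, 311 and 149 without a filter, 20 and 11 with all 15 samples in 1 fit, 6 and 6 with the replicate block, and 107 and 78 by adjusted p alone, with 10 higher at a minimum of 10 counts in every sample. In mLN 15 and 32 genes became 83 and 89 with DESeq2, 179 and 163 without a filter, 107 and 71 with all 15 samples, 0 and 1 with the replicate block (edgeR), and 42 and 50 by adjusted p alone, with 25 lower at a minimum of 10 counts. In mLN the fit with all samples shares the spread of 4 groups. For KO against WT the replicate block joins samples of the same number, whose correlations between genotypes were −0.210 to 0.146. No pairing is known behind it, and its counts are given for completeness. With any one replicate left out, the calls ranged from 4 (without KO spleen replicate 2) to 79 (without WT spleen replicate 3) lower and from 4 to 34 higher in spleen, and from 1 (without KO mLN replicate 4) to 26 (without WT mLN replicate 1) lower and from 2 to 34 higher in mLN. Lower and higher in mLN than in spleen, WT gave 539 and 184 genes, 905 and 300 without a filter, and 1572 and 1408 by adjusted p alone, with 102 to 245 higher when a WT spleen replicate was left out. KO gave 570 and 193, with 372 lower at a minimum of 10 counts, 393 higher without a filter, and 1976 and 1626 by adjusted p alone. Without a filter, 6 genes within 1 Mb of the cluster were called lower in spleen and 1 in mLN, in place of 1 and 0.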
